A study of Homo sapiens with 6 samples.

Results

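The glutathione peroxidase family was examined in the bulk transcriptomes of HK-2 cells after irradiation. Its 8 members, GPX1 to GPX8, were chosen by gene name, with earlier results of these data known. They took up 10 of the 38648 rows in each file, since GPX5 and GPX6 are listed a second time on an alternate scaffold. HK-2 is a human cell line immortalized from proximal tubule epithelium. The series compared 3 libraries of cells with a negative control lentivirus (IR+NC-LV) and 3 of cells with a lentivirus for PRDM16 overexpression (IR+PR-LV). All 6 cultures, controls included, received a single dose of 8 Gy of X-rays and were harvested on day 7, and per the study's methods transduced cells were selected with puromycin. No library of unirradiated cells was part of the comparison, so the values describe irradiated cells only. Nothing in the labels says whether the libraries of a group came from separate transductions, and p-values therefore measure the spread between these libraries.

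Typical glutathione peroxidases reduce hydrogen peroxide and organic hydroperoxides to water and alcohols with electrons from glutathione. This thiol tripeptide is then recycled by glutathione reductase. In humans GPX1, GPX2, GPX3, GPX4 and GPX6 carry selenocysteine in the active site, which requires a dedicated decoding machinery, whereas GPX5, GPX7 and GPX8 carry cysteine. GPX1 is the widespread cytosolic enzyme, GPX4 reduces lipid hydroperoxides in membranes and restrains ferroptosis, GPX3 is secreted into plasma and is produced mainly by the proximal tubule of the kidney, and GPX7 and GPX8 reside in the endoplasmic reticulum.

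The libraries held between 13407074 and 28540041 counted reads. PRDM16 was counted 2, 0 and 1 times in IR+NC-LV and 14, 10 and 8 times in IR+PR-LV. TPM is a transcript level scaled by exon length and then to the same sum in every library. Of 9 markers of renal epithelium, 8 reached a mean of 1 TPM, among them PAX8, KRT8 and KRT18. Of 12 markers of the differentiated proximal tubule only AQP1 and GGT1 did. The summed TPM of the tubule markers was 78.4 to 81.4 (IR+NC-LV) or 60.7 to 79.2 (IR+PR-LV), with LRP2 at 3 reads in all libraries together. The sum of 7 leukocyte markers was higher in IR+NC-LV (193 to 207 TPM) than in IR+PR-LV (160 to 175 TPM). It consisted mostly of CD68, a lysosomal protein, while PTPRC had 10 reads in the 6 libraries. Of the 7 markers, 3 reached a mean of 1 TPM, namely CD68, ITGAM and CSF1R. ITGAM had a mean of 2.91 TPM in IR+NC-LV and 0.446 TPM in IR+PR-LV (edgeR adjusted p = 0.0755). CSF1R had 5.23 and 4.30 TPM in these groups (edgeR adjusted p = 0.611). Of 6 endothelial markers 0 reached 1 TPM, and the summed TPM of 7 fibroblast markers, carried by LUM and COL1A1, was 131 to 136 (IR+NC-LV) or 106 to 151 (IR+PR-LV).

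The genomic window at each member's start was read first, since 4 members had mean levels over 100 TPM and the other 4 were near or at 0. The RefSeq windows (build GRCh38.p14) cover 250 bases before and 50 bases after the start and were matched for all 8 members. The RefSeq start of GPX8 lies 16 bases from that in the files, and the other starts coincide. The following windows are shown because GPX4 had the highest level of the family, GPX8 a high level, and its relative GPX7 no read at all. Capitals mark CpG dinucleotides.
GPX4 (chr19:1103744-1104043, plus strand): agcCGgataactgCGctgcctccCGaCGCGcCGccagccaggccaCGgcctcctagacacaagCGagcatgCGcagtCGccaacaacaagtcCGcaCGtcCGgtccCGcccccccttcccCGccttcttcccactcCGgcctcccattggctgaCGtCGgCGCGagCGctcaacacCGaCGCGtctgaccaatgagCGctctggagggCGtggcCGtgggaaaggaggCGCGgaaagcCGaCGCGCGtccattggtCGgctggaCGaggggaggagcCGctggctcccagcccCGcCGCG
GPX7 (chr1:52602121-52602420, plus strand): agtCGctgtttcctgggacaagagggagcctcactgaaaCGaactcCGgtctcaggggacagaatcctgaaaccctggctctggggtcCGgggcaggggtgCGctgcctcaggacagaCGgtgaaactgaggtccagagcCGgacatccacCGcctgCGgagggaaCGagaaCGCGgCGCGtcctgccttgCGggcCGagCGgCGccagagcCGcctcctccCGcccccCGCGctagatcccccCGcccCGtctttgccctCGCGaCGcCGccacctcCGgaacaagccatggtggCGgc
GPX8 (chr5:55159921-55160220, plus strand): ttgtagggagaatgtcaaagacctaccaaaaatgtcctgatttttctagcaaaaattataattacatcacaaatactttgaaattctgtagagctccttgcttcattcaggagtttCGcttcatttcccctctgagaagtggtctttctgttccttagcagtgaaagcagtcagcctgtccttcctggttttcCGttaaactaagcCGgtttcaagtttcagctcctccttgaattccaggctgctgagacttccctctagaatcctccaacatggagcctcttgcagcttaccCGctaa
The GPX4 window held 39 CpG at 1.06 times the number its base composition gives, a ratio above that of 95.4% of the 35116 windows in the table. The GPX7 window held 30 CpG with a ratio of 0.843 and thus lay on the CpG-rich side as well. The GPX8 window held only 4 CpG, with a ratio of 0.298. Among the other members, GPX1 (0.632) and GPX3 (0.664) were near the median of all windows (0.579), and GPX2 (0.187), GPX5 (0.301) and GPX6 (0.216) were CpG-poor. CpG content therefore did not order the members by level, as the plot of level against CpG content shows. These are features of the reference sequence, and DNA methylation was not measured in these samples.

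The GPX2 window is printed because it alone of the 8 held a match to the antioxidant response element, the binding motif of NRF2, searched as TGACNNNGC on both strands. The match, in capitals, reads on the reverse strand and lies 122 to 114 bases before the gene start.
GPX2 (chr14:64942696-64942995, minus strand): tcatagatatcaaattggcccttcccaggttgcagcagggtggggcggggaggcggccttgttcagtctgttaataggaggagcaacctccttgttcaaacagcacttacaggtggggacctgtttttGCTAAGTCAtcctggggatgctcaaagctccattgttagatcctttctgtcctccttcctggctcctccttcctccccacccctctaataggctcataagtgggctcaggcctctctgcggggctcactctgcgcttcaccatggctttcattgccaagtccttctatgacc
Of all windows, 13.3% held such a match. GPX2, the enzyme of the gastrointestinal epithelium, was counted 58 times in the 6 libraries. A match to these letters is a description of the sequence and not evidence of binding.

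Among the members with reads, GPX4 had the highest level in both groups, followed by GPX1, GPX3 and GPX8. GPX4 (hg38 chromosome 19, as for all positions from the files, 1103994 to 1106779, plus strand, 1153 exon bases) had 347, 379 and 366 TPM in IR+NC-LV replicates 1, 2 and 3 and 421, 361 and 339 TPM in the IR+PR-LV replicates. IR+PR-LV replicate 1 was the highest library and IR+PR-LV replicate 3 the lowest, so that the IR+NC-LV values lay inside the IR+PR-LV range. By mean TPM (364 ± 16.1, SD, n = 3), GPX4 ranked 415 among the 26715 rows with any level in IR+NC-LV, above 98.4% of them, and it ranked 409 in IR+PR-LV (374 ± 42.4 TPM, SD, n = 3).

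GPX1 (chromosome 3, 49357176 to 49358353, minus strand, 1178 exon bases) had 335, 333 and 295 TPM in IR+NC-LV and 338, 288 and 254 TPM in IR+PR-LV. The groups overlapped, with the highest and the lowest library both in IR+PR-LV. Its rank was 498 among IR+NC-LV means (321 ± 22.2 TPM, SD, n = 3) and 575 in IR+PR-LV (293 ± 42.3 TPM, SD, n = 3). Of the 100-base stretches of its longest coding transcript 92.7% occur in no other annotated gene, the remainder being shared with the pseudogene GPX1P1. For the other 7 members this share was 100%, and the exons of none of the 10 rows overlap those of another gene. The share does not take account of the second listed copies of GPX5 and GPX6.

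GPX3, the plasma enzyme of tubular origin (chromosome 5, 151020591 to 151028988, plus strand, 1630 exon bases), had 151, 153 and 178 TPM in IR+NC-LV and 175, 152 and 152 TPM in IR+PR-LV. Each group held a single high library, and the other 4 lay within 3 TPM of each other. GPX3 ranked 1186 and 1198 by mean TPM in the respective groups (161 ± 14.9 and 160 ± 13.2 TPM, SD, n = 3 each). The transcript of this secreted kidney enzyme was thus among the upper 5% of rows in cells in which 10 of the 12 tubule markers were under 1 TPM.

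GPX8, a transmembrane enzyme of the endoplasmic reticulum (chromosome 5, 55160155 to 55167297, plus strand, 3750 exon bases), had 116, 118 and 111 TPM in IR+NC-LV and 102, 135 and 129 TPM in IR+PR-LV. IR+PR-LV replicate 1 had the lowest value of the 6 libraries and the other IR+PR-LV replicates the highest. The spread was wider in IR+PR-LV (122 ± 17.6 TPM) than in IR+NC-LV (115 ± 3.75 TPM, SD, n = 3 each). GPX8 ranked 1742 and 1637 in the respective groups. It had the most reads of the family, 16019 in all, but the lowest TPM of these 4 genes, because its exons are about as long as those of GPX1, GPX3 and GPX4 together. In each group, the ranges of neighbours in the order GPX4, GPX1, GPX3 and GPX8 did not overlap. The step from GPX4 to GPX1 was small, with a ratio of mean TPM of 1.13 (IR+NC-LV) or 1.28 (IR+PR-LV), and that from GPX1 to GPX3 was 2.0 and 1.84.

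The remaining members were near or at 0. GPX2 (chromosome 14, 64939158 to 64942745, minus strand) was counted 11, 14 and 7 times in IR+NC-LV and 6, 10 and 10 times in IR+PR-LV, or 1.5 ± 0.160 and 1.01 ± 0.271 TPM (SD, n = 3 each). GPX8, the next above it, was 76.9 times as high (IR+NC-LV) or 121 times as high (IR+PR-LV). GPX5, an epididymal protein, and GPX6, of the olfactory epithelium, are neighbours on chromosome 6 and had 1 read each in the 6 libraries, that of GPX5 on the alternate scaffold (IR+PR-LV replicate 3) and that of GPX6 on the chromosome (IR+PR-LV replicate 1). Both rows of GPX5 have 1870 exon bases. How reads that match both copies of a gene were counted is not given, so such reads may be missing from these counts. GPX7 (chromosome 1, 52602371 to 52609051, plus strand, 1229 exon bases) had 0 reads in each of the 6 libraries. With 115430886 reads in all, a count of 0 allows up to 0.026 CPM (counts per 1e+06 counted reads), or 0.0690 TPM for a gene of this length, taken as 3 reads over the 6 libraries. GPX8 was thus at least 1750-fold higher than GPX7 per length. Such limits and intervals on reads cover counting error only.

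**Figure D1:**
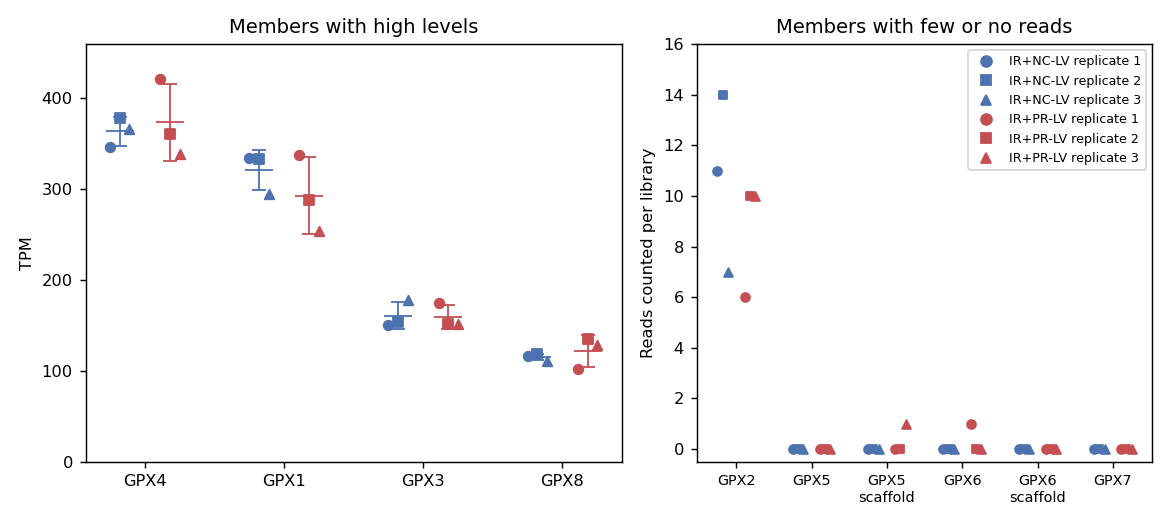
Left, TPM of the 4 members with high levels in each library, with horizontal bars at the mean and error bars of 1 SD (n = 3). Right, reads counted per library for the rows of the other 4 members. GPX4 exceeded GPX1 in every library, and GPX2 alone of the lower members had more than 1 read in a library.

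The effect of the PRDM16 lentivirus on the family was then tested, with PRDM16 itself at 0.308, 0.131 and 0.163 TPM in the IR+PR-LV replicates. With edgeR's quasi-likelihood test across the 15340 rows that passed the filter on low counts, 10 rows (0.0652%) had an adjusted p-value under 0.05 after Benjamini-Hochberg adjustment, 3 of them higher (0.0196%) and 7 lower (0.0456%) in IR+PR-LV, and none of them was a glutathione peroxidase. The filter passed 4 of the 8 members, GPX1, GPX3, GPX4 and GPX8. Of these, 3 were higher and 1 was lower in IR+PR-LV, and 0 had an unadjusted p-value under 0.05, against 10.5% of all tested rows. DESeq2 likewise called 0 of the 4. The groups of libraries overlapped for all 4, whereas they did not overlap for 17.0% of the tested rows. The median log2 fold change of the 4 was 0.05, beside 0.0044 over all tested rows.

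GPX8 had a log2 fold change of 0.12 (95% interval -0.12 to 0.36, adjusted p = 0.733 from edgeR), from 131 ± 10.1 to 142 ± 20.7 normalized CPM (SD, n = 3 each). GPX1 had a log2 fold change of -0.10 (95% interval -0.36 to 0.17, adjusted p = 0.808 from edgeR). These sizes are ordinary for the data, since the absolute log2 fold change was smaller than that of GPX8 for 56.0% of all tested rows. GPX4 had a log2 fold change of 0.08 (95% interval -0.13 to 0.28, adjusted p = 0.809 from edgeR) and GPX3 of 0.03 (95% interval -0.14 to 0.21, adjusted p = 0.906 from edgeR). The intervals do not show that the levels were equal. They place the change of GPX8 between 0.920-fold and 1.28-fold, and that of GPX1 between 0.779-fold and 1.12-fold. Fewer transcripts per cell and fewer cells with the transcript cannot be told apart in bulk RNA. GPX2 did not pass the filter, and from 32 and 26 reads its rate in IR+PR-LV was 0.648 times that in IR+NC-LV, with an exact 95% interval for counting error of 0.371 to 1.12.

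IR+PR-LV replicate 1 decided part of these values. Without it, the log2 fold change of GPX8 was 0.23 (unadjusted p = 0.0158, adjusted p = 0.204 from edgeR) and that of GPX1 was -0.21 (adjusted p = 0.371), while those of GPX4 (-0.02) and GPX3 (-0.04) changed sign. Without IR+PR-LV replicate 3, that of GPX1 was 0.0040, and without IR+NC-LV replicate 1 that of GPX3 was -0.0019. No member passed the threshold in any of the 6 fits that left out a library.

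**Figure D2:**
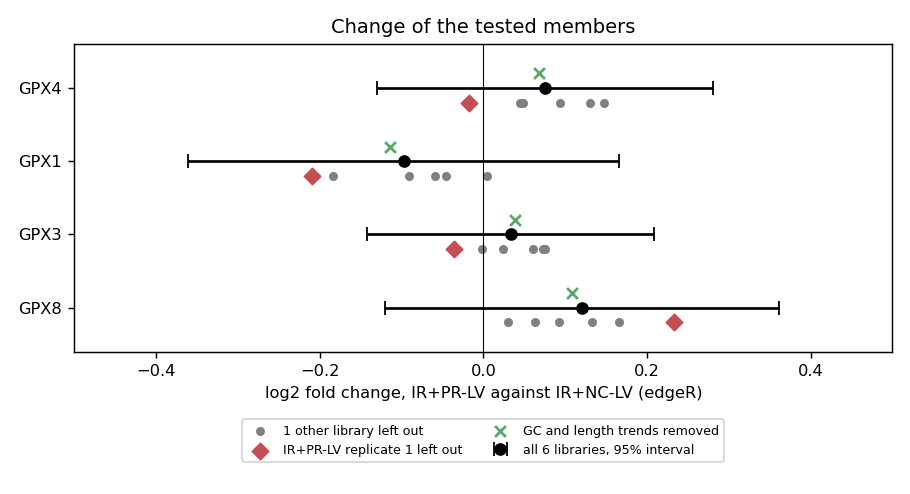
Log2 fold changes of the 4 tested members, IR+PR-LV against IR+NC-LV. Black points and bars give the fit of all 6 libraries with its 95% interval, grey points and red diamonds the fits with a library left out, and green crosses the fit after removal of trends with GC content and length. All 4 intervals include 0, and the fit without IR+PR-LV replicate 1 is at the edge of the left-out fits for every member.

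The spread of the members between libraries was examined next, beside that of genes of similar base composition. The longest transcripts of GPX1 and GPX4 have 64.2% and 62.5% GC, and that of GPX8 has 40.8%. In IR+PR-LV replicate 1, GPX4 was 0.22 and GPX1 0.17 above its mean over the 6 libraries on the log2 CPM scale, and the median of the 1655 tested genes with 60 to 66% GC was 0.20 above. GPX8 was 0.19 below in the same library, and the median of the 3578 genes with 38 to 44% GC was 0.07 below. In IR+PR-LV replicate 3 the signs were the opposite, with GPX1 0.27 and GPX4 0.12 below, GPX8 0.12 above, and class medians of -0.14 and 0.07. IR+PR-LV replicate 2 was different for GPX8 and GPX4. GPX8 had its largest deviation there (0.23 above) with a class median of 0.03. GPX4 was 0.0065 above with a class median of -0.04, whereas GPX1, at -0.05, was close to that median. In the IR+NC-LV libraries the class medians stayed between -0.03 and 0.01, while GPX1 was 0.14, 0.16 and -0.14. The median of the 671 tested genes with 1000 to 1400 exon bases, a class that includes GPX1 and GPX4, was 0.03, 0.05 and -0.09 in these libraries. GPX1 had the same signs. GPX4 was -0.08, 0.07 and -0.10 and thus had the opposite sign to the class in IR+NC-LV replicate 1. Correcting every library for its dependence on GC content and exon length, an alternative chosen after the data were seen, narrowed the standard error of GPX1 from 0.12 to 0.07 and that of GPX4 from 0.09 to 0.05. The log2 fold changes were then -0.11 and 0.07, and the edgeR adjusted p-values 0.427 and 0.554. None of the 4 members passed the threshold after this step, and 46 rows did.

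The summed level and the makeup of the family were then compared. The summed TPM of the 10 rows was 950, 985 and 952 in IR+NC-LV and 1037, 937 and 875 in IR+PR-LV, with overlapping groups (2-sided exact permutation test, p = 0.8). The shares of this sum need no scaling for depth between libraries, but they were not corrected for the GC trends described above. GPX4 made up 36.5%, 38.5% and 38.5% of this sum in IR+NC-LV and 40.6%, 38.5% and 38.8% in IR+PR-LV. Its share was higher in every IR+PR-LV library, but the nearest libraries, IR+NC-LV replicate 3 (38.489%) and IR+PR-LV replicate 2 (38.501%), differed by far less than the spread within a group (2-sided exact permutation test, p = 0.1, the smallest that 3 libraries against 3 allow, and 0.5 after Benjamini-Hochberg adjustment over the 5 values of this kind). The share of GPX1 was 33.4% ± 2.14 under IR+NC-LV against 30.8% ± 1.80 under IR+PR-LV (SD, n = 3 each, exact permutation p = 0.2), and that of GPX3 was 16.7% ± 1.72 and 16.8% ± 0.564 (exact permutation p = 1). GPX8 contributed 12.2%, 12.0% and 11.7% in IR+NC-LV and 9.85%, 14.4% and 14.7% in IR+PR-LV (exact permutation p = 0.4). Since GPX8 was the only cysteine member with more than 1 read, nearly all of the rest was transcript of selenocysteine enzymes. The log2 ratio of GPX1 to GPX4 TPM, examined after the values were seen and hence without a test, was -0.05, -0.19 and -0.31 in IR+NC-LV and -0.32, -0.33 and -0.42 in IR+PR-LV.

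Genes linked to the family by function or compartment were then examined as lists, of which none had a gene past the threshold. The list of glutathione supply and recycling held 17 tested genes of 20, 7 higher and 10 lower in IR+PR-LV, with a median log2 fold change of -0.04 (all tested rows, 0.0044). An unadjusted p-value under 0.05 was found for 0 higher and 4 lower genes, against 4.55% and 5.97% of all tested rows in these directions. SLC7A11, the cystine importer that feeds glutathione synthesis, had 19.8, 17.9 and 38.2 TPM in IR+NC-LV and 14.1, 12.8 and 17.5 TPM in IR+PR-LV, with IR+NC-LV replicate 3 far above the others. It differed by -0.72 on the log2 scale (SE 0.23, edgeR adjusted p = 0.370). The other 3, named after their values were seen, were its partner subunit SLC3A2 (-0.56), the glutathione-degrading enzyme CHAC1 (-0.64) and GGT7 (-0.26), whose edgeR adjusted p-values lay between 0.216 and 0.397. IR+NC-LV replicate 3 was the highest of the 6 libraries for these 3 genes as well. In IR+NC-LV replicates 1, 2 and 3, SLC3A2 had 188, 166 and 265 TPM and CHAC1 had 3.28, 2.59 and 4.25 TPM. GGT7 had 27.1, 26.7 and 29.1 TPM in these libraries. SLC3A2 passed with DESeq2 (adjusted p = 0.00274), and both transporter subunits passed without the filter on low counts (edgeR adjusted p = 4.93e-05 and 0.000131). PGD and GGCT, the tested genes of the list with the highest mean over the 6 libraries (177 and 173 TPM), had log2 fold changes of 0.02 and 0.14, and OPLAH had the highest (0.20), with edgeR adjusted p-values from 0.641 to 0.930.

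The machinery that inserts selenocysteine into GPX1 to GPX4 showed no common direction, with 7 of 14 tested genes higher, 7 lower and a median of 0.000048. SEPSECS, which forms selenocysteine on its transfer RNA, had 9.33, 8.69 and 12.3 TPM in IR+NC-LV and 7.23, 8.00 and 8.72 TPM in IR+PR-LV, and its log2 fold change was -0.29 (SE 0.12, edgeR adjusted p = 0.451). NCL, an abundant nucleolar protein that binds selenoprotein transcripts, had a log2 fold change of 0.18 (adjusted p = 0.397 from edgeR), the ribosomal protein gene RPL30 of -0.13 (adjusted p = 0.685) and the elongation factor gene EEFSEC of 0.19 (adjusted p = 0.896), at 2.49 TPM on average. SEPHS1 (0.14, adjusted p = 0.472), named after its value was seen, was the third gene with an unadjusted p-value under 0.05. Of the 14 genes, 2 were higher and 1 was lower at this cutoff, against 4.55% and 5.97% of all tested rows.

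Among the other selenoproteins, which share this machinery with the family, 11 of 15 tested genes were higher and 4 lower, beside 51.1% higher of all tested rows, with a median of 0.04. TXNRD1, the cytosolic thioredoxin reductase, was the most abundant at 966 TPM on average and thus exceeded GPX4, with a log2 fold change of 0.09 (adjusted p = 0.670 from edgeR). SELENOF of the endoplasmic reticulum (530 TPM on average) had 0.22 (adjusted p = 0.480) and SELENOO had -0.20 (adjusted p = 0.715). SELENOI (0.19, adjusted p = 0.397) was the single gene with an unadjusted p-value under 0.05. Of all tested rows, 4.55% were higher and 5.97% were lower at this cutoff. SELENOP, the plasma selenium carrier, had 1 read in the 6 libraries.

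Lipid peroxidation and ferroptosis, the process that GPX4 restrains, gave 9 higher and 9 lower of 18 tested genes and a median of 0.02. ACSL4, which loads polyunsaturated fatty acids into the lipids that GPX4 protects, had 295, 311 and 287 TPM in IR+NC-LV and 303, 338 and 349 TPM in IR+PR-LV, with a log2 fold change of 0.19 (SE 0.08, edgeR adjusted p = 0.451). The transferrin receptor gene TFRC had 0.14 (adjusted p = 0.587). ALOXE3, a lipoxygenase gene of low level, had 4.85, 4.41 and 8.51 TPM in IR+NC-LV and 2.42, 2.05 and 2.53 TPM in IR+PR-LV, without overlap. Its log2 fold change of -1.28 (SE 0.24) was the largest of the 5 lists but stayed above the threshold (adjusted p = 0.0999 from edgeR). It passed with DESeq2 (adjusted p = 0.00143) and without the filter (adjusted p = 5.33e-05 from edgeR). ALOX12 had 0.20 (adjusted p = 0.712), and SCD, named after its value was seen, had 0.14 (adjusted p = 0.428).

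The oxidative folding genes of the endoplasmic reticulum, the compartment of GPX7 and GPX8, had 13 higher and 2 lower of 15 tested genes, a median of 0.12, and 3 genes with an unadjusted p-value under 0.05, all higher. Over all tested rows, 51.1% were higher, and 4.55% were higher with an unadjusted p-value under 0.05. With IR+PR-LV replicate 1 left out, the list had a median of 0.0674 and the log2 fold change of GPX8 was 0.23, and without IR+PR-LV replicate 2 they were 0.140 and 0.03. PDIA6, a disulfide isomerase, had 245, 237 and 252 TPM in IR+NC-LV and 291, 270 and 268 TPM in IR+PR-LV, with a log2 fold change of 0.22 (SE 0.06, edgeR adjusted p = 0.274). PRDX4, the peroxiredoxin of this compartment (0.20), and PDIA3 (0.15), both named after their values were seen, had adjusted p-values of 0.348 and 0.396 from edgeR. P4HB, the most abundant of the list at 1090 TPM, had 0.13 (adjusted p = 0.594), HSPA5 had 0.10 (adjusted p = 0.664) and VKORC1 had the lowest value, -0.07 (adjusted p = 0.814).

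**Figure D3:**
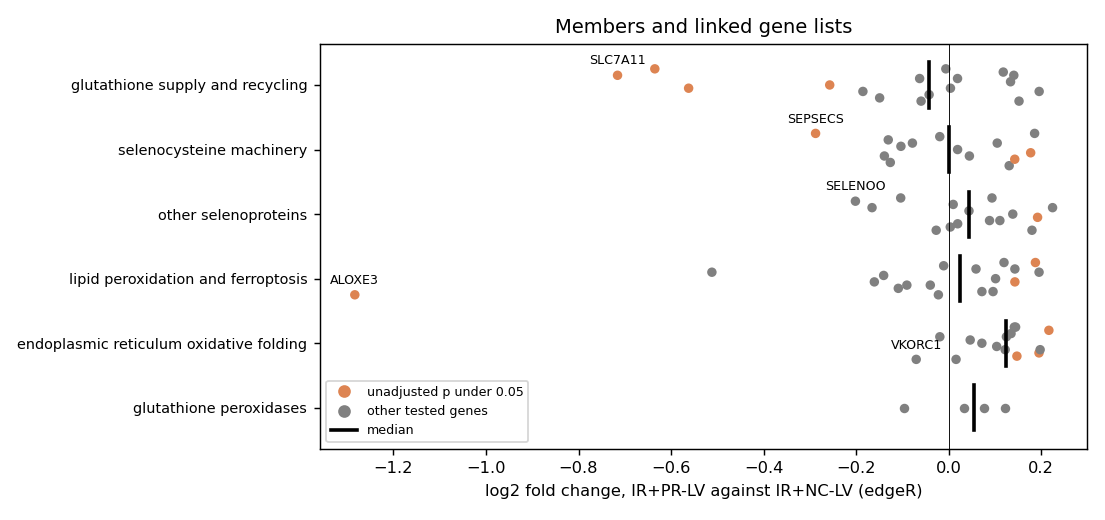
Log2 fold changes (IR+PR-LV against IR+NC-LV, edgeR) of the tested genes of 5 lists and of the 4 tested glutathione peroxidases, with black bars at the medians and orange points for unadjusted p-values under 0.05. The gene with the lowest value of each list is named, and the medians lie between -0.04 and 0.12.

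Across the 6 libraries, the genes most like GPX4 among 9817 tested genes with at least 10 CPM were CTSF (Pearson r = 0.992 of log2 CPM), JUND (0.990) and TRIP10 (0.989). Among those most like GPX8 were RAB1A (0.995) and RTRAF (0.994). With only 6 points, which also share their library's depth and GC trend, 323 and 485 genes had an r over 0.9 with GPX4 and GPX8, respectively. Between members, r was 0.70 for GPX1 and GPX4, 0.69 for GPX3 and GPX4, and -0.75 for GPX3 and GPX8 (n = 6 libraries each).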

How the data were processed

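Total RNA was selected for poly(A) tails and sequenced in pairs on an MGI instrument, and the authors filtered the reads for quality and adapter sequence. The deposited files give, per gene and library, raw read counts, TPM and FPKM. The deposited TPM and FPKM were checked to follow from the deposited counts, exon lengths and totals. The submitters' processing notes name CASAVA, featureCounts 2.0.1, DESeq2 1.16.1 and the build hg38. The aligner and whether counting used the strand are not given in the sources used here. Libraries were grouped by their titles.

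Counts were compared with edgeR 4.0.16 in R 4.3.3, using filterByExpr (minimum count 10, minimum total 15), TMM normalization and the quasi-likelihood test, without covariates. CPM values are TMM-normalized, except the limit for GPX7 and the ranks by CPM, which used the raw library totals. P-values were adjusted over 15340 rows with a threshold of 0.05. Intervals used the test's degrees of freedom. Summed TPM and shares were compared by exact permutation with scipy 1.17.1. The procedure was tested on simulated counts with changes larger than those estimated for the members. That test does not measure how well changes of the members' size would be found. GC content came from GENCODE 29 transcripts and was found for 90.4% of tested rows. Promoter windows came from RefSeq. CpG counts and matches used no mismatch.

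Alternatives were DESeq2 1.42.0, normalization by RLE or by the upper quartile, other filters, the replicate number as a block, leaving out each library, summing rows of a gene name, FPKM and TMM-scaled counts per kilobase, and, added after seeing the data, removal of GC and length trends. The members and gene lists were chosen with earlier results of these data known. In each list the text names the 2 tested genes with the highest TPM and those with the largest positive and negative log2 fold change. Other genes are marked where named after their values were seen. Some results on single genes are not reported here.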

Additional observations from a re-analysis of the deposited data

How the results depend on the processing

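None of GPX1, GPX3, GPX4 and GPX8 passed the threshold under any alternative run. Their log2 fold changes kept their direction except with a library left out, where GPX1 ranged from -0.21 to 0.0040, GPX3 from -0.0362 to 0.0757 and GPX4 from -0.0179 to 0.148, while GPX8 ranged from 0.03 to 0.23. The log2 ratio of summed TPM between the groups (-0.02) became 0.0193 with TMM-scaled counts per kilobase and ranged from -0.0871 to 0.0366 with a library left out. The difference in share was -3.75 to -1.65 percentage points for GPX1, -0.45 to 1.10 for GPX3, 0.83 to 1.89 for GPX4 and 0.17 to 2.60 for GPX8. Those in the log2 ratio of GPX1 to GPX4 and to GPX8 were -0.24 to -0.11 and -0.44 to -0.07.

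The number of rows past the threshold moved from 10 (3 higher, 7 lower) to 173 with DESeq2 (57 and 116), 342 without a filter (135 and 207) and 46 with GC and length trends removed (10 and 36). With a library left out it was 1 to 28 (1 to 7 higher, 0 to 22 lower), the lowest when IR+NC-LV replicate 1, or instead IR+PR-LV replicate 3, was absent and the highest without IR+NC-LV replicate 2. With the replicate number as a block it was 3 (1 and 2). The titles number the libraries but do not say whether equal numbers are pairs. Deviations of same-numbered libraries from their group means correlated at -0.0088, 0.05 and 0.07, and those of differently numbered ones at -0.0971 to 0.0619. With 3 libraries per group, such values cannot settle whether libraries were paired. The cause of the shifts in the number of rows was not tested. The median of the selenocysteine machinery turned negative with upper-quartile normalization (-0.0113), with at least 10 counts in every library (-0.0011), with the block (-0.00015) and with rows summed per gene name (-0.0477), and ranged from -0.0406 to 0.0222 with a library left out. That of lipid peroxidation ranged from -0.0121 to 0.0524, that of glutathione supply from -0.0691 (IR+PR-LV replicate 2 left out) to -0.0263 (IR+PR-LV replicate 1), that of the other selenoproteins from 0.0141 to 0.0676 (lowest 3 values, up to 0.0173, when IR+NC-LV replicate 3, IR+PR-LV replicate 1 or IR+PR-LV replicate 2 was left out, and highest for IR+NC-LV replicate 2) and that of oxidative folding from 0.0674 to 0.140. Without the length term, by CPM, the ranks became 1934 for GPX4, 2162 for GPX1, 3277 for GPX3, 1853 for GPX8 and 15174 for GPX2, so that GPX8 came first. At 58 reads in all, depth limits what GPX2 can show.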
